A study of Danio rerio with 3 samples.

Results

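Oxidative phosphorylation is carried out by protein complexes of the inner mitochondrial membrane, and the genes described here are those that the nucleus encodes for them. They were chosen by gene symbol: subunits and assembly factors of complex I (symbols starting with nduf), complex II (sdh followed by a to d), complex III (uqcr, and cyc1), complex IV (cox4 to cox8) and complex V (atp5), and the electron carrier gene cycsb. The rule found 84 genes among the 14462 that the probe table names. Complex I holds 32 of them, complex II 5, complex III 6, complex IV 16 and complex V 13. The remaining ones are 6 assembly factors of complex I, 3 of complex II, 2 genes of the ATPase inhibitory factor and cycsb. Of the 84 genes, 72 were measured in all 3 samples, 5 in part, and 7 had no value.

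Each sample set embryos exposed to Aroclor 1254, a commercial mixture of polychlorinated biphenyls, at 71.9 mg/L against control embryos kept in fish medium at 28.5 °C. Exposure started at 24 hpf (hours post fertilization) and lasted 24 h, and whole zebrafish embryos were collected at 48 hpf. The 3 samples are biological replicates of this 1 contrast on two-colour arrays with dye swaps. The labels do not give a strain, or say which clutches or how many embryos the RNA came from, so p-values measure only the spread between these 3 samples. Values are log ratios as deposited and are taken as log2; a natural logarithm could not be told apart, and folds and the 1.5-fold threshold rest on this. No label says which condition is the numerator, so "positive" and "negative" give the sign in the table and no direction of the exposure. Gene names rest on an inferred match of table rows to probes by their position on the array grid. Because whole embryos were measured, fewer cells of a type and less RNA per cell cannot be told apart.

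Electrons from NADH enter at complex I and those from succinate at complex II. They pass through complex III and cytochrome c to complex IV, where oxygen is reduced. Complexes I, III and IV pump protons, and complex V uses the returning flow to make ATP. Complex II is encoded by the nucleus alone, while the other complexes also hold subunits made in the mitochondrion. The roles given below are those established in mammals. At this stage the embryo lives on yolk, and muscle, heart and brain are rich in mitochondria.

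As a check of the exposure, cyp1a, a cytochrome P450 and marker of dioxin-like biphenyls, had ratios of 7.07, 8.61 and 8.02 in replicates 1, 2 and 3 (7.90 ± 0.78, SD, n = 3; adjusted p = 0.000812, limma). It was positive and far from 0 in each. The table held a value for 12735, 10487 and 12062 of 45219 rows in replicates 1, 2 and 3, and for 10200 in all. Replicate 2 varied most, with an SD over genes of 0.92, against 0.80 in replicate 1 and 0.51 in replicate 3. Of 27 markers of muscle, heart, red cells, nervous system, hatching gland, ionocytes and liver on the array, 24 were measured.

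Probes of the oxidative phosphorylation genes had a value far more often than probes at large. Of their 114 probes, 99 had a value in at least 1 sample (86.8%), against 45.4% of the 21060 probes with a gene. In all 3 samples, 80.7% of their probes had a value, against 36.2% of all. The share with any value was 100% for complex III, 94.7% for complex V, 86% for complex I, 80% for complex II and 77.8% for complex IV. The genes without a value were ndufa1 and ndufs8b of complex I, sdhda of complex II, cox4i2, cox5bb and cox6a2 of complex IV, and atp5mea of complex V. The rule that left rows empty is not given in the table.

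Most of the 72 measured genes lay close to 0. The median ratio was 0.05 over the members, against -0.04 over all 5897 genes. The median size of the mean ratio, with its sign removed, was 0.19 for the members and 0.33 for all genes. A mean of at least 1.5-fold in either direction was reached by 5 of 72 members (6.94%), against 23.8% of all genes. These were cox4i1l and ndufa4a, which were positive, and ndufa3, atp5pf and atp5mc3a, which were negative.

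When every sample had to reach 1.5-fold with the same sign, 4 of 72 members did so (5.56%), which is near the 5.32% of all genes. Only ndufa4a was lost from the 5 by this stricter rule. With the row numbers as given in place of the grid match, 27 genes carried member names and the order turned, with a median size of 0.47 for them and 0.34 for all genes. Under that numbering, probes of 1 gene had a Pearson r of 0.03 for the mean ratio, against 0.76 under the grid match. It therefore cannot show how the members behave. Under the grid match, the median size in single samples was 0.32, 0.39 and 0.28 for the members and 0.45, 0.54 and 0.30 for all genes in replicates 1, 2 and 3. The gap was thus smallest in replicate 3. Signal levels were not used here, and whether probe brightness had a part in the smaller ratios was not tested.

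**Figure D1:**
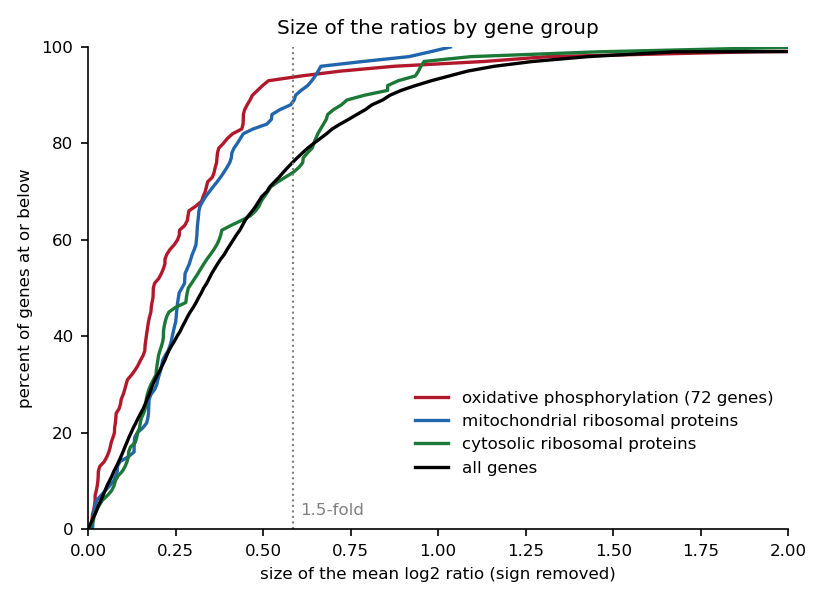
Share of genes (vertical axis, percent) whose mean log2 ratio over 3 samples, with its sign removed, is at or below the value on the horizontal axis, for the 72 oxidative phosphorylation genes, the mitochondrial and the cytosolic ribosomal protein genes and all 5897 genes; the axis ends at 2. The oxidative phosphorylation curve lies to the left of that of all genes from the lowest 2% of genes up to the dotted line at 1.5-fold, which 6.94% of these genes and 23.8% of all genes reached.

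Protein synthesis genes of the same samples had a larger median size of the mean ratio than the members, though not in every single sample. The 52 measured mitochondrial ribosomal protein genes had a median size of 0.27 and the 67 cytosolic ones 0.29. In replicates 1, 2 and 3 the mitochondrial ribosomal genes had median sizes of 0.29, 0.44 and 0.32, so in replicate 1 they lay below the 0.32 of the members. Their SD over genes was lower than that of the members in every replicate (0.44, 0.62 and 0.46, against 0.54, 0.83 and 0.47). The members' SD includes the single gene cox4i1l, at 2.48, 4.78 and 1.97, and was not computed without it. It therefore does not show that the members at large spread more. The cytosolic ribosomal genes had a median ratio of 0.88 in replicate 2, against 0.11 and -0.07 in replicates 1 and 3. The members had medians of 0.18, -0.002 and 0.05 in replicates 1, 2 and 3, so their median in replicate 2 was close to 0. These differences between gene groups were not tested.

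No member passed an adjusted p of 0.05 in limma, as a gene (0 of 72, against 0.017% of all genes) or as a row (0 of 92, against 0.0686% of all rows). At an unadjusted p of 0.05 there were 6 of these rows (6.52%), against 18.9% of all rows. At an unadjusted p of 0.05, 5 of 72 members passed (6.94%), against 16.2% of all genes. These 5 were the same that reached 1.5-fold. With the ordinary statistic, which does not pool the spread over genes, 7 of 72 members and 600 of 5897 genes passed. Those shares are similar, so the gap to all genes depended on the statistic. Of the 72, 17 were positive in all samples (23.6%), against 19.6% of all genes, and 13 were negative in all (18.1%), against 23.5%. The 95% interval of the mean had a median half-width of 0.60 on the log2 scale, against 0.65 over all genes. It included 0 for 67 of the 72 members and for 4943 of all 5897 genes. For 55 members and 2868 of all genes it lay between a 2-fold negative and a 2-fold positive ratio.

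**Figure D2:**
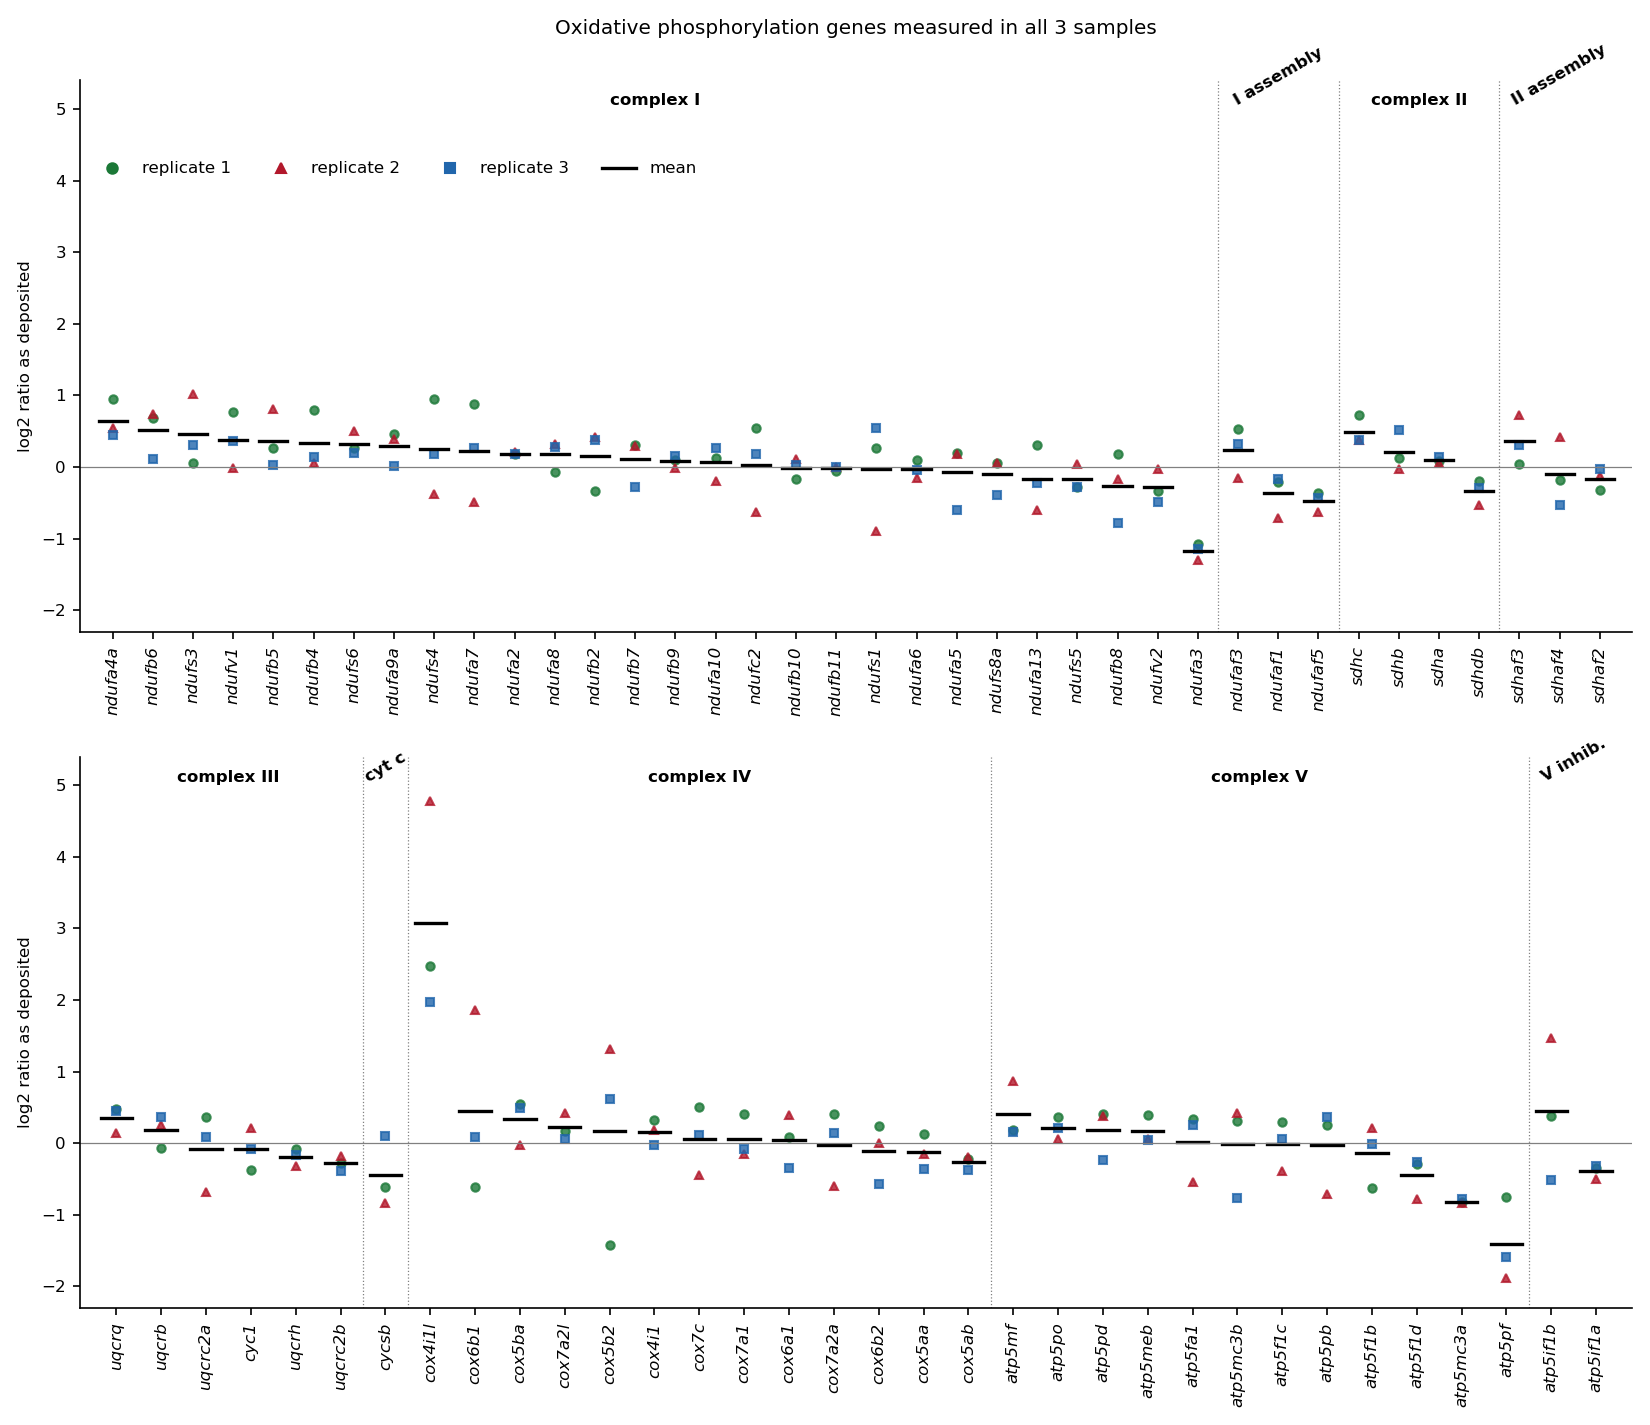
Log2 ratio as deposited (vertical axis) of the 72 oxidative phosphorylation genes measured in all samples, grouped by complex and ordered by mean within each; symbols are the 3 replicates and bars their mean. Most genes lie near 0, cox4i1l stands at 1.97 to 4.78, and ndufa3, atp5mc3a and atp5pf lie below -0.75 in every replicate.

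Complex I is the largest complex and the entry point for NADH, with a matrix arm that carries flavin and iron-sulfur centres and a membrane arm that pumps protons. Its 28 measured subunit genes had a median of 0.09 (0.19, 0.04 and 0.13 in replicates 1, 2 and 3). With a constant sign in all samples there were 8 positive genes (28.6%, against 19.6% of all genes) and 2 negative ones (7.14%, against 23.5%). The NADH-binding part of the matrix arm (8 genes) had a median of 0.20, the ubiquinone-binding part (3 genes) one of -0.08 and the membrane arm (15 genes) one of 0.07. The genes ndufa4a and ndufa9a, both positive in all samples, were counted in none of these parts. Counting ndufa9a in the ubiquinone-binding part would turn the sign of that median. In replicates 1, 2 and 3 the NADH-binding part read 0.27, -0.09 and 0.19, the ubiquinone-binding part 0.06, 0.18 and -0.39, and the membrane arm 0.13, 0.03 and 0.03, so the parts did not keep 1 order across samples. The NADH-binding median was -0.10 without replicate 1, and the ubiquinone-binding one 0.19 without replicate 3.

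The gene ndufa3, for an accessory subunit of the membrane arm, stood apart from the rest of complex I. Its ratio was -1.08, -1.30 and -1.15 in replicates 1, 2 and 3, from 1 row. The samples lay close together and all were negative. The mean was -1.18 ± 0.11 (SD, n = 3; 2.27-fold; adjusted p = 0.157, limma), with a 95% interval of -1.74 to -0.62. It ranked 67th by p among all genes. The next lowest gene of complex I was ndufv2, a core iron-sulfur subunit, at -0.33, -0.03 and -0.49 (-0.29 ± 0.23, SD, n = 3; adjusted p = 0.564, limma).

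The highest gene was ndufa4a, with 0.95, 0.55 and 0.44 in replicates 1, 2 and 3 (0.64 ± 0.27, SD, n = 3; 1.56-fold; adjusted p = 0.278, limma). Its product was first assigned to complex I and has since been placed in complex IV in mammals. Both of its rows were positive in every sample, with means of 0.43 and 0.86. Counting it in complex IV left the median of complex I at 0.08 and that of complex IV at 0.11. Its paralogue ndufa4l2a had a value in replicate 1 alone, 0.64.

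Other positive genes of complex I were ndufb6, an accessory subunit of the membrane arm, at 0.68, 0.75 and 0.11, and ndufs3, a core subunit of the ubiquinone-binding part, at 0.06, 1.02 and 0.31. Neither passed (adjusted p = 0.364 and 0.433, limma). For ndufv1, the core subunit that binds NADH and flavin, the ratio was 0.76, -0.01 and 0.36 (0.37 ± 0.39, SD, n = 3; adjusted p = 0.489, limma). Its 2 rows gave nearly the same mean, 0.37 and 0.38. The other 22 measured subunit genes had means between -0.26 and 0.37, and 5 of them were positive and none negative in all samples. The gene ndufa12l had a value in 2 samples, -1.40 in replicate 1 and 0.24 in replicate 3.

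Assembly factors of complex I were measured less completely: 3 of 6 genes had a value in all samples. The methyltransferase-like factor ndufaf5 had ratios of -0.36, -0.62 and -0.43 (-0.47 ± 0.14, SD, n = 3; adjusted p = 0.364, limma). For ndufaf1, a factor for the membrane arm, they were -0.22, -0.72 and -0.17 (-0.37 ± 0.31, SD, n = 3), and for ndufaf3 0.53, -0.16 and 0.32. The first and second of these genes were negative in all samples and the third was mixed. In part of the samples, ndufaf4 stood at -0.67 and -0.54 in replicates 1 and 2, and ndufaf7 at 0.66 in replicate 3. The 2 rows of ndufaf6 differed, with 0.48 and 0.80 for 1 row and -0.25 and 0.13 for the other in replicates 1 and 3.

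Complex II, succinate dehydrogenase, links the citric acid cycle to the respiratory chain. Its flavoprotein gene sdha had 4 measured rows and ratios of 0.09, 0.05 and 0.14 (0.09 ± 0.05, SD, n = 3), so the averaged gene hardly differed between samples. Its rows had means from -0.18 to 0.29. The iron-sulfur subunit gene sdhb stood at 0.12, -0.03 and 0.52 (0.20 ± 0.29, SD, n = 3).

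The membrane anchors of complex II had opposite signs. For sdhc the ratios were 0.72, 0.38 and 0.37 (0.49 ± 0.20, SD, n = 3; 1.41-fold; adjusted p = 0.355, limma), and both of its rows were positive in every sample. For sdhdb they were -0.19, -0.53 and -0.29 (-0.34 ± 0.17, SD, n = 3; adjusted p = 0.488, limma). Neither passed. The assembly factors sdhaf2, sdhaf3 and sdhaf4 had means of -0.16, 0.36 and -0.10. The second was positive in all samples, the first negative in all, and the last mixed. A further row of sdhaf2 with a value in replicates 1 and 2 read -0.21 and 1.21.

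Complex III passes electrons to cytochrome c, and all 6 of its genes on the array were measured. The largest fold of the mean was 1.28, for uqcrq. The ubiquinone-binding subunit gene uqcrq was positive in all samples, at 0.48, 0.14 and 0.45 (0.36 ± 0.19, SD, n = 3; adjusted p = 0.464, limma). The core subunit gene uqcrc2b was negative in all, at -0.27, -0.18 and -0.39 (-0.28 ± 0.10, SD, n = 3; adjusted p = 0.555, limma), and so was the hinge subunit gene uqcrh, at -0.07, -0.32 and -0.17 (-0.19 ± 0.12, SD, n = 3). The genes uqcrb (0.19 ± 0.22) and cyc1 (-0.08 ± 0.29; SD, n = 3 each) had mixed signs. Cytochrome c1, the product of cyc1, hands electrons to cytochrome c. The core subunit gene uqcrc2a was mixed as well, at 0.36, -0.68 and 0.09 (-0.08 ± 0.54, SD, n = 3).

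The gene cycsb encodes cytochrome c itself, which also starts the apoptotic caspase cascade when it leaves mitochondria. Its ratios were -0.62, -0.83 and 0.10 (-0.45 ± 0.49, SD, n = 3; 1.37-fold; adjusted p = 0.442, limma). Replicates 1 and 2 were negative and replicate 3 was not. Its rows had means of -0.32 and -0.58.

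Complex IV, cytochrome c oxidase, held the member with the largest ratio. The gene cox4i1l, a paralogue of the gene for the large regulatory subunit cox4i1, had ratios of 2.48, 4.78 and 1.97 in replicates 1, 2 and 3, from 1 row. All samples were positive, and replicate 2 was more than 2 units above the others. The mean of 3.08 ± 1.496 (SD, n = 3; 8.44-fold) was the 5th largest in size of all 5897 genes and had a 95% interval of 1.81 to 4.34. Its adjusted p was 0.123 in limma, with an unadjusted p of 0.000807. It passed after equal scaling (2.94, adjusted p = 0.0248), after quantile normalization (2.78, adjusted p = 0.0217) and without replicate 3 (3.63, adjusted p = 0.033, limma). Without replicate 2 the mean was 2.23 (adjusted p = 0.082, limma). Over the alternatives its adjusted p ran from 0.0217 to 0.496.

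The partner cox4i1 stood at 0.33, 0.19 and -0.02 (0.16 ± 0.18, SD, n = 3; adjusted p = 0.748, limma), and the third paralogue, cox4i2, had no value. The difference of cox4i1l minus cox4i1 was 2.15, 4.59 and 2.00. The means of the other measured genes of complex IV lay between -0.26 and 0.44. With only 3 samples, an exact test over sign changes cannot go below p = 0.25, so pairs of genes are compared by their values alone.

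Other genes of complex IV were mostly of mixed sign. In replicate 2 the genes cox6b1, whose product lies on the intermembrane side, and cox5b2 were at 1.86 and 1.31, while in replicate 1 they were at -0.61 and -1.42. Their means of 0.44 ± 1.28 and 0.17 ± 1.42 (SD, n = 3 each) were smaller than this spread. The gene cox7a2l, whose product joins complexes III and IV in supercomplexes, was positive in all samples, at 0.18, 0.42 and 0.06 (0.22 ± 0.18, SD, n = 3; adjusted p = 0.658, limma). The gene cox5ab was negative in all, at -0.22, -0.19 and -0.37 (-0.26 ± 0.10, SD, n = 3). The genes cox5ba (0.34 ± 0.31) and cox5aa (-0.13 ± 0.25; SD, n = 3 each) were mixed, and so was cox6b2 (-0.11 ± 0.41, SD, n = 3).

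Several subunits of complex IV have tissue isoforms. In mammals, cox7a1 is the heart and muscle form and cox7a2 the form of other tissues. Here cox7a1 had a mean of 0.06 ± 0.31 and cox7a2a one of -0.02 ± 0.52 (SD, n = 3 each), and both were positive in replicate 1 and negative in replicate 2. The liver-type gene cox6a1 stood at 0.05 ± 0.37 (SD, n = 3), and its muscle-type partner cox6a2 had no value. Of 5 measured skeletal muscle markers, 1 had the same sign in all samples, the troponin gene tnnt3b (-1.51 ± 0.33, SD, n = 3; adjusted p = 0.12, limma), and their median was -0.09 (-0.11, -0.34 and 0.17 in replicates 1, 2 and 3). The 4 measured heart markers were all mixed, with a median of 0.20 (-0.41, 0.58 and -0.004). Of the other lists, the medians were 0.41 for red cells, -0.10 for the nervous system, 2.11 for the hatching gland, -0.26 for ionocytes and 0.61 for liver. The hatching gland list, of 2 measured genes, read 2.54, 3.94 and -0.16 in replicates 1, 2 and 3. Red cells read 0.30, 1.39 and -0.45, the nervous system 0.51, -0.35 and -0.30, ionocytes -0.79, -0.16 and 0.18, and liver 0.28, 0.88 and 0.67. Only the liver list kept 1 sign over the samples, and it held 2 measured genes. Of these, tfa changed sign, with -0.78 in replicate 1 and positive ratios in the others. The constant sign of the list therefore rested on its other gene, apoa1a. Without replicate 2 the median was 0.015 for red cells and 0.085 for the nervous system, and without replicate 1 it was 0.0094 for ionocytes. Of the 24 measured markers, 1 was positive in all samples, against 19.6% of all genes. It was the liver gene apoa1a (1.15 ± 0.20, SD, n = 3; adjusted p = 0.16, limma). Negative in all samples were 2 of the 24, tnnt3b and the glial gene gfap, against 23.5% of all genes. The part of these cell types in the members' ratios was not tested.

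Complex V, ATP synthase, joins a catalytic head and a membrane rotor of c subunits by a central and a peripheral stalk. Its lowest gene was atp5pf, for coupling factor 6 of the peripheral stalk. The ratio was -0.75, -1.88 and -1.60 in replicates 1, 2 and 3, from 1 row (-1.41 ± 0.59, SD, n = 3; 2.66-fold; adjusted p = 0.16, limma). Its samples were all negative and its 95% interval ran from -2.12 to -0.70. The other peripheral stalk genes measured did not share this. The gene atp5po, for the subunit that ties the stalk to the head, was positive in all samples, at 0.37, 0.06 and 0.21. Of its 2 rows, 1 had a mean of 0.04 and read -0.04 in replicate 3. The remaining peripheral stalk genes had mixed signs.

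The rotor gene atp5mc3a, which encodes the c subunit, stood at -0.83, -0.84 and -0.78 (-0.82 ± 0.03, SD, n = 3; 1.76-fold; adjusted p = 0.202, limma). Its SD was the smallest among the 5 genes past 1.5-fold. Its paralogue atp5mc3b had ratios of 0.31, 0.43 and -0.77, so the pair differed by -1.14 and -1.27 in replicates 1 and 2 and by -0.01 in replicate 3. Near-identical copies of a gene can share signal on a probe, and how far these probes do was not tested.

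In the catalytic head and central stalk, atp5f1d, the delta subunit, was negative in all samples, at -0.29, -0.78 and -0.26 (-0.44 ± 0.29, SD, n = 3; adjusted p = 0.408, limma), though 1 of its 2 rows read 0.05 in replicate 3. The 3 other genes of the head had means between -0.14 and 0.02. In the membrane part, atp5mf was positive in all, at 0.19, 0.87 and 0.15 (0.40 ± 0.41, SD, n = 3; adjusted p = 0.462, limma), though 1 of its 2 rows read -0.12 in replicate 1.

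The inhibitory factor stops ATP synthase from splitting ATP when respiration fails, and both of its genes were measured. For atp5if1a the ratios were -0.35, -0.50 and -0.32 (-0.39 ± 0.09, SD, n = 3; 1.31-fold; adjusted p = 0.427, limma), negative in all samples. For atp5if1b they were 0.38, 1.47 and -0.52 (0.44 ± 1.00, SD, n = 3; adjusted p = 0.579, limma), with replicate 2 far above the others.

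**Figure D3:**
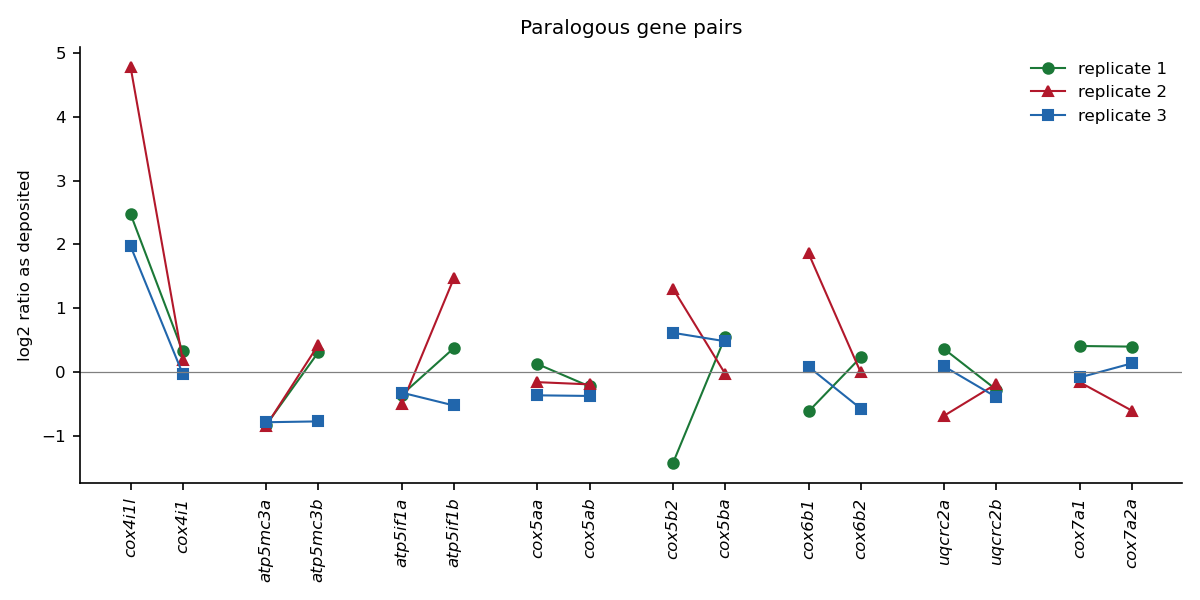
Log2 ratio as deposited (vertical axis) of 8 pairs of paralogous oxidative phosphorylation genes; each line joins the members of a pair in 1 replicate. The difference had the same sign in all replicates for 3 pairs, the largest being cox4i1l minus cox4i1 at 2.00 to 4.59.

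Of the 8 pairs of paralogues, 3 kept the sign of their difference in all samples: cox4i1l and cox4i1, atp5mc3a and atp5mc3b, and cox5aa and cox5ab, whose difference averaged 0.13 ± 0.19 (SD, n = 3). The pairs of the inhibitory factor, cox5b2 and cox5ba, cox6b1 and cox6b2, uqcrc2a and uqcrc2b, and cox7a1 and cox7a2a changed sign between samples. In cox5b2 minus cox5ba it ran from -1.97 in replicate 1 to 1.33 in replicate 2.

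Between complexes the medians differed little. They were 0.09, 0.15, -0.08, 0.06 and -0.01 for complexes I, II, III, IV and V, with an SD over the 3 replicate medians of 0.07, 0.13, 0.04, 0.12 and 0.22. Of the 10 pairs of complexes, 3 kept the sign of their difference in all samples, each of them with complex III as the lower one, and the other 7 pairs did not. The median of complex I lay above that of complex III by 0.25, 0.06 and 0.12 in replicates 1, 2 and 3, and that of complex II by 0.17, 0.03 and 0.25. Complex III minus complex IV was -0.30, -0.02 and -0.06, with a mean smaller than its SD (-0.12 ± 0.15, n = 3). These differences were not tested. Complexes I, II, IV and V changed order among themselves from sample to sample. Complex II rests on 4 genes and complex III on 6. Without replicate 2 the median of complex III was 0.01. That of complex V was -0.15 without replicate 1 and 0.13 without replicate 2, and that of complex II was 0.06 without replicate 3.

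**Figure D4:**
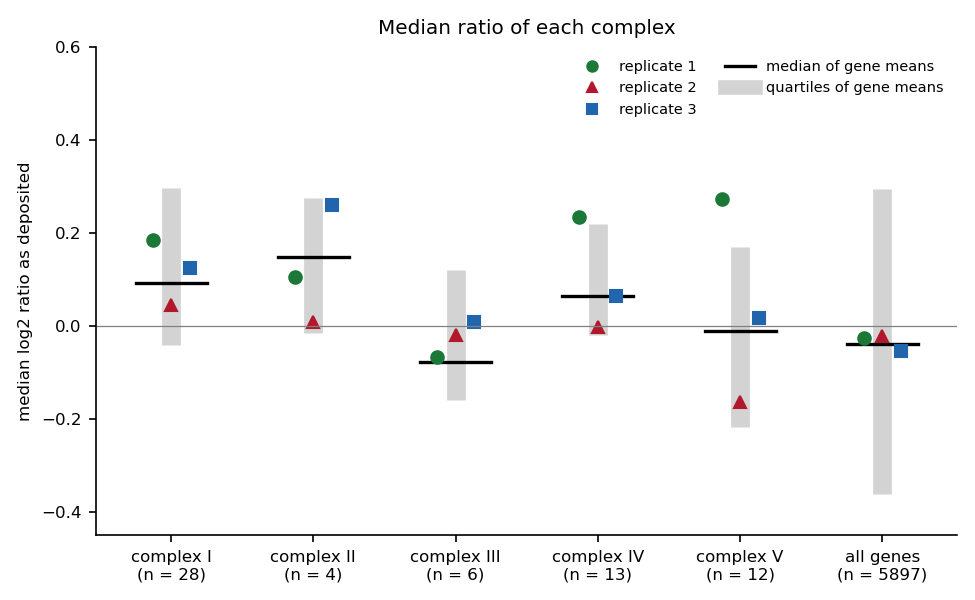
Median log2 ratio as deposited (vertical axis) over the measured subunit genes of each complex, with all genes at the right; symbols are the medians in the 3 replicates, the line is the median of the gene means and the grey bar spans their quartiles. The medians of the 5 complexes lie between -0.08 and 0.15, and the replicates of complex V spread most.

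Rows of 1 gene often differed by more than the size of a typical member's ratio. Of the 18 members with several measured rows, 8 had rows of opposite mean sign, but in none of these did a row reach 1.5-fold. The gap between the lowest and the highest row had a median of 0.31, against the median size of 0.19 of the mean ratios, and was at most 0.63, in atp5fa1. The rows of atp5f1c, the gamma subunit of the central stalk, read -1.22 and 0.44 in replicate 2. In cox7a2a, a pair with one of the smallest gaps, the rows read 0.48, -0.64 and 0.14 and 0.32, -0.56 and 0.14 in replicates 1, 2 and 3, so both followed the same course over the samples. Described across the 72 genes, which share each sample's array and are no replicates, Pearson's r between replicates was 0.42 to 0.56. Without cox4i1l it was 0.11 to 0.40, and over all 5897 genes 0.29 to 0.47. The genes with the largest ratios, cox4i1l, atp5pf, ndufa3 and atp5mc3a, each rest on a single row.

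Among genes that feed or build the chain, 42 of 68 listed genes on the array were measured, and none passed over all genes in limma. At an unadjusted p of 0.05 there were 4 (9.52%, against 16.2% of all genes). All samples were positive for 9 of the 42 (21.4%, against 19.6%) and negative for 8 (19%, against 23.5%), which is near the shares of all genes. Citric acid cycle genes had a median of 0.11 over 11 genes. In all samples, 5 were positive (45.5%, against 19.6% of all genes) and 1 was negative (9.09%, against 23.5%). The positive ones were idh3b (0.52 ± 0.13), a subunit of isocitrate dehydrogenase, fh (0.45 ± 0.15), the fumarase gene, suclg1 (0.44 ± 0.29), dld (0.33 ± 0.02) and idh2 (0.11 ± 0.11; SD, n = 3 each). The negative one was cs, citrate synthase (-0.29 ± 0.30, SD, n = 3). In replicate 3, idh2 read 0.03 and cs -0.0065, both close to 0. Adjusted p for idh3b, the lowest of this list, was 0.327 in limma.

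Genes of pyruvate entry into mitochondria included 1 of each sign. The gene dlat, for the acetyltransferase of the pyruvate dehydrogenase complex, had ratios of -1.06, -0.70 and -0.55 (-0.77 ± 0.26, SD, n = 3; adjusted p = 0.222, limma). The pyruvate carrier gene mpc2b had 1.04, 0.73 and 0.18 (0.65 ± 0.44, SD, n = 3; adjusted p = 0.307, limma). The list median was 0.05 over 6 genes.

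Assembly factors outside the symbol rule had a median of -0.19 over 15 genes. In replicates 1, 2 and 3 it was -0.25, -0.41 and 0.15, and without replicate 2 it was -0.05, so its sign was not constant. Of the 15 genes, 1 was positive in all samples (6.67%, against 19.6% of all genes). Negative in all were 4 (26.7%, against 23.5%). The lowest was surf1, a factor for complex IV whose loss in humans causes Leigh syndrome, at -0.95, -1.41 and -1.75 (-1.37 ± 0.40, SD, n = 3; 2.58-fold; adjusted p = 0.155, limma). The copper chaperone gene sco2 (-0.59 ± 0.51), the complex I factor ecsit (-0.50 ± 0.38) and coa7 (-0.39 ± 0.25; SD, n = 3 each) were the other negative ones. Of these, sco2 read -0.03 in replicate 3. The positive one was coa5, also a factor for complex IV, at 1.30, 0.45 and 1.03 (0.93 ± 0.44, SD, n = 3; adjusted p = 0.208, limma).

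Carrier and coupling genes had a median of -0.16 over 7 genes. In replicates 1, 2 and 3 it was -0.15, 0.002 and 0.09, and without replicate 2 it was 0.04, so its sign was not constant. The outer membrane channel genes vdac1 (0.23 ± 0.32) and vdac2 (0.28 ± 0.18) were positive and vdac3 (-0.33 ± 0.28; SD, n = 3 each) negative in all samples. In replicate 2, however, vdac1 read 0.002 and vdac3 -0.02, both close to 0. The mitochondrial creatine kinase gene ckmt1 had the smallest p of this list (-0.49 ± 0.71, SD, n = 3; adjusted p = 0.463, limma) and mixed signs. Of the transcription factors that drive these genes, gabpa was negative in all samples (-0.43 ± 0.24) and nrf1 mixed (0.20 ± 0.49; SD, n = 3 each), with adjusted p of 0.407 and 0.735 in limma.

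**Figure D5:**
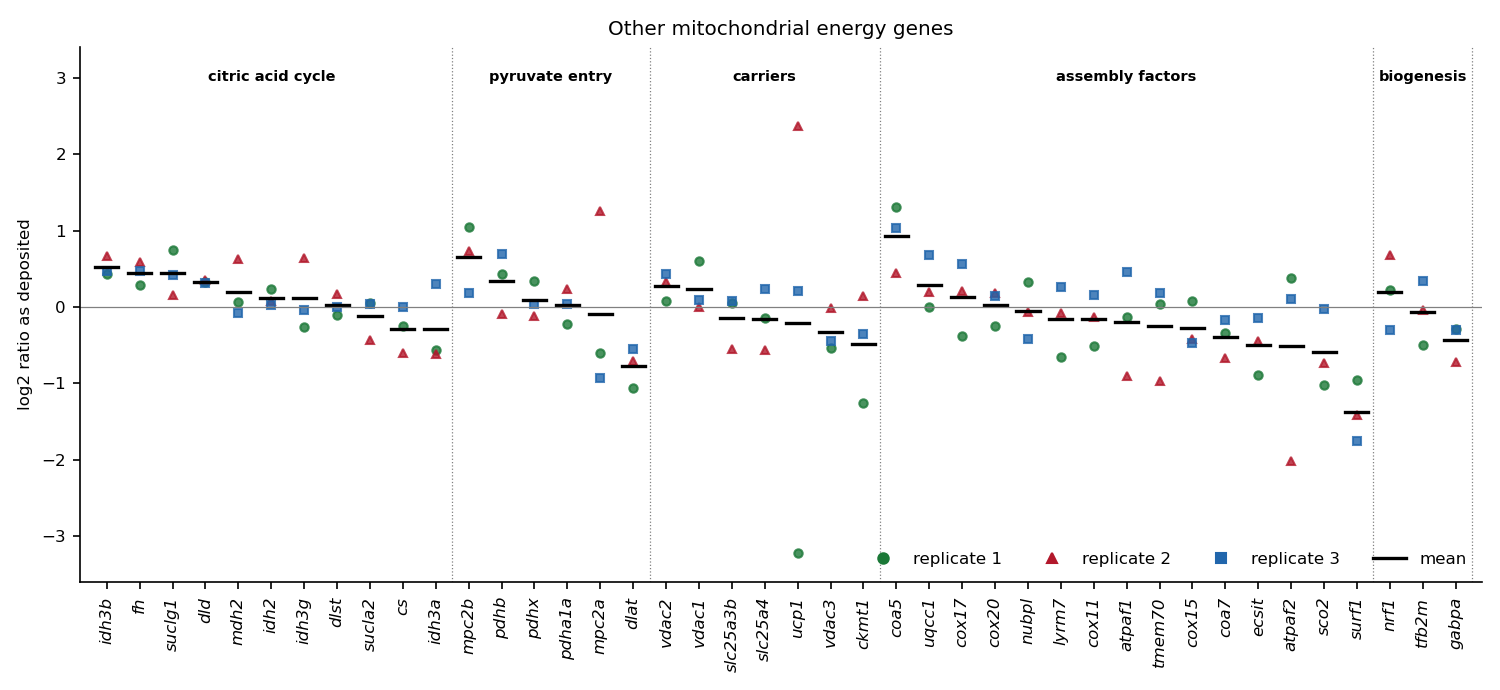
Log2 ratio as deposited (vertical axis) of 42 measured genes of the citric acid cycle, pyruvate entry, carriers and coupling, assembly factors outside the symbol rule, and mitochondrial biogenesis; symbols are the 3 replicates and bars their mean. Within the assembly factors, surf1 lies lowest at -0.95 to -1.75 and coa5 highest at 0.45 to 1.30.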

How the data were processed

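The authors deposited 1 log ratio per row and sample for 3 samples of exposed against control embryos, and these log2 values were used as deposited. That the unit is log2 was taken from the values, per the deposited table: they are signed, centred near 0 and reach sizes that a log10 ratio could not, and a natural logarithm could not be told apart. For the scanner, background correction, normalization and dye swaps, the handling was not given in the sources used here. Rows were paired with probes by their position on the array grid, an inference from earlier work with these data. Under it, 2169 measured pairs of probes of 1 gene had a Pearson r of 0.76 for the mean ratio, against 0.03 over 440 pairs with the row numbers as given. Among the members, 23 such pairs gave 0.40. Of the 84 members, 83 were found by gene ID in the RefSeq table of assembly GRCz12tu, with the same symbols.

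Averaging each gene's completely measured rows per sample gave 5897 genes. Genes and, apart from them, 10200 rows were tested 2-sided against 0 with an intercept-only model, using lmFit and eBayes of limma 3.58.1 (R 4.3.3). P-values were adjusted over all genes or rows by Benjamini-Hochberg, with a threshold of 0.05. Each gene contributes 2 residual degrees of freedom, and the prior 4.6. The procedure was also run on simulated data, as a check of the code alone. That run does not measure how often changes of the members' size would pass in these data. The replicates form 1 group, and the number of arrays limits the precision.

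The members and gene lists were chosen with earlier results of these data known. Named are all measured genes of complex II and cytochrome c and the listed isoforms of complex IV and of the ATPase inhibitor. In complexes I, III, IV and V the 5 genes with the smallest p were added, with the 2 largest means of opposite sign to the complex. For each pathway list the 2 genes with the smallest p are named, and cyp1a. Of the 65 genes named with tested values, 44 follow this rule. The others (assembly factors, paralogous partners, further list genes and 2 markers) were chosen after their values were seen. Alternatives covered scaling, missing values, several rows per gene, each replicate left out, the member list, the statistic and array weights. The row numbers as given, the position trend and the complex of ndufa4a were added after seeing the data. Background correction, a filter on dim probes and the slide as a block were not run, since no scanner values were used here.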

Additional observations from a re-analysis of the deposited data

How the results depend on the processing

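Over the alternatives, the median of the members stayed within its spread between replicates. The count of members called, 0, became 1 (cox4i1l, as a gene and as a row) after equal scaling and after quantile normalization, and 1 row under array weights. Leaving out 1 replicate gave 0 to 1 genes and 0 to 1 rows, all cox4i1l. It gave 5 to 9 members at 1.5-fold (6.94% to 12.5%, against 24.2% to 33.6% of all genes). The members' median size was 0.23 to 0.24, against 0.333 to 0.405 for all genes. Between 23 and 33 members were positive in all remaining samples, where fewer samples had to agree. The share of all genes was not computed for this count. Medians ran from 0.0215 to 0.138 for complex I, 0.057 to 0.22 for II and -0.12 to 0.0141 for III. For IV they were 0.027 to 0.13 and for V -0.15 to 0.13. Genes with a single row gave a complex II median of -0.068 and 11 positive genes, since fewer genes were tested. Removing the position trend gave 0.19, 0.035, -0.10, 0.15 and 0.066 for complexes I to V, and moved 26 of the 65 named genes by over 1.5 times or turned them (dld to 0.088, ndufs3 to 0.18, vdac2 to 0.093 and uqcrc2b to -0.082), none of them at 1.5-fold. Scaling and quantile normalization both gave 0.03 for the complex V median, against -0.01. Over all genes, 1 call became 37 after scaling, 40 after quantile normalization, 42 with array weights and 22 without replicate 3. With the ordinary statistic there was none. Among single-row genes there was none either, but cyp1a, the gene of the 1 call, has several rows and was not tested there. At an unadjusted p of 0.05, 954 genes became 571 without replicate 1 and 600 with the ordinary statistic (700 of the single-row genes). The 5 members became 3 without replicate 3 and 7 with the ordinary statistic and with the position trend removed. Over all genes the counts were 737 without replicate 3 and 979 with the position trend removed. With the ordinary statistic, 7 of 72 members and 600 of 5897 genes are similar shares. The row numbers as given test only 27 genes with member names, and under them probes of 1 gene had a Pearson r of 0.03. They gave a median size of 0.47, against 0.34 for all genes, and 7 positive and 7 negative genes. At 1.5-fold there were 10 of these genes (37%, against 27% of all genes). The complex medians were -0.13 (I), -0.25 (II), -0.17 (IV) and 0.74 (V).

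Of 762 values of named genes, 731 kept their direction and side of the threshold, 5 newly passed, 1 no longer passed (cyp1a with the ordinary statistic, 7.90, adjusted p = 0.35) and 25 changed sign, in 13 genes. Of the newly passing ones, 3 were cox4i1l and the others tnnt3b (-1.49 after scaling, -1.51 after quantile normalization). Signs turned for cox6a1 (-0.0143 after scaling, -0.0201 after quantile normalization, -0.13 with array weights, -0.11 without the position trend) and cox7a2a (0.0227, 0.0281, 0.11 and 0.0656 in the same order). With array weights they turned for atp5if1b (-0.0204), nrf1 (-0.0325) and uqcrc2a (0.0637), and with values in at least 2 samples for sdhaf2 (0.082). With 1 replicate left out, the ranges that crossed 0 were -0.23 to 0.0678 for cyc1, -0.26 to 0.97 for cox6b1, -0.071 to 0.93 for atp5if1b, -0.13 to 0.24 for cox6a1, -0.12 to 0.16 for cox7a1, -0.23 to 0.27 for cox7a2a, -0.0395 to 0.45 for nrf1, -0.40 to 0.96 for cox5b2, -0.29 to 0.12 for cox6b2, -0.29 to 0.23 for uqcrc2a, -0.23 to 0.37 for atp5mc3b and -0.36 to 0.12 for sdhaf4. The ranges kept 1 sign for the 5 members at 1.5-fold, which was fixed in advance because each of them had the same sign in all 3 samples. Apart from the stated cases of fewer genes or samples, the cause was not tested. Array signal was not used here, so its limit on single rows is unknown. Every ratio already sets exposed against control embryos, and no further pairing was possible because the samples form 1 group.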
